A study of Macaca mulatta with 20 samples.

Results

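Genes of protein secretion and of the endoplasmic reticulum stress response were followed across 5 sources of rhesus macaque RNA. The list held 51 genes in 8 role groups, and each was read from the probe sets that carry its symbol alone, by the brightest probe set on each type of array. The rhesus arrays measured 37 of them with 76 probe sets, among 14132 genes in all. The human arrays measured 49 with 123 probe sets, among 19775 genes in all. Both types measured 35, and every one of the 51 was measured on at least 1 type. The rhesus arrays gave no value for SRP9, SRP14, SRP72, SRPRB, SSR1, SPCS3, HSPA5, DNAJB9, DNAJC3, HYOU1, CALR, CRELD2, SEL1L and SEC23B. The human arrays gave none for SEC61G and KDELR2.

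The sources were cerebral cortex, pancreas, testis and thymus tissue and immortalized fibroblasts, a line of connective tissue cells that divides in culture. No agent or genotype is named for any of them, and their labels name no animal, age or sex. RNA of each source was read on 2 rhesus arrays, with probes designed from rhesus transcripts, and on 2 human arrays, with probes designed from human transcripts, which gave 20 arrays. Both arrays of a pair carry the label of technical replicates of 1 source. The p-values below therefore reflect the scatter between arrays of 1 RNA per source and say nothing of the scatter between animals.

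Proteins that leave the cell are made on the membrane of the endoplasmic reticulum. The signal recognition particle brings the ribosome there, the SEC61 channel takes the chain across the membrane, and the signal peptidase removes its leading stretch. Chaperones and protein disulfide isomerases fold the chain, coated vesicles carry it onward, and KDEL receptors return escaped chaperones. When unfolded chains build up, the sensors ERN1, EIF2AK3 and ATF6 start the unfolded protein response, whose transcription factors include XBP1 and ATF4. The acinar cells of the pancreas are a textbook example of a cell given over to this work, as they secrete digestive enzymes, and fibroblasts secrete collagen and other matrix proteins by the same route.

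Values are log2 expression values, so a difference of 1 is a doubling, and they were not compared between genes or between types of array. Unspiked bacterial control probe sets lay between 2.15 and 3.16 in the rhesus table and between 2.32 and 3.10 in the human table, which is the floor of the measurement. A difference against a level near the floor is not an exact fold. A gene was called where limma gave an adjusted p below 0.05, after Benjamini-Hochberg adjustment over all probe sets, and the absolute difference was at least 1.

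The pancreas arrays held exocrine pancreas RNA, with 7 of 7 exocrine markers called higher there by the rhesus probes and 8 of 8 by the human probes. Markers of other cells moved with them. Islet markers were called higher for 1 of 1 and 4 of 5. Of the red cell list 1 of 3 and 1 of 4 were called higher, in both cases HBB (3.62 and 3.02), while the others differed by 0.04 to 0.12. Of the plasma and B cell markers limma called 0 of 6 and 0 of 8 higher (0 and 4 at an unadjusted p below 0.05), and JCHAIN, which joins secreted antibody chains, was called lower on the rhesus arrays (-1.05). That call rests on the level of thymus, at a mean of 8.63. JCHAIN read 3.525 in pancreas, 3.65 in testis and 3.01 in cerebral cortex and in fibroblasts. Its human difference was 0.24, not called. Markers of the other 4 sources were highest in their own source on both types, apart from THY1, highest in cerebral cortex, and PRM1, a sperm gene, which was at 3.21 and 2.43 in testis, near the floor. Among these markers some were called higher in pancreas too. The fibroblast marker COL1A2, a collagen chain, was higher by 1.09 and 1.05, and COL1A1 by 2.50 with human probes (0.56 with rhesus probes, not called). The cortex marker SLC1A2, a glutamate transporter, was higher by 3.75 and 3.85. In all 1 of 5 and 2 of 6 fibroblast markers were called higher in pancreas and 2 and 3 lower, and of the cortex markers 1 of 5 and 1 of 6 higher and 4 and 4 lower. The thymus markers DNTT and CD1B also read 7.88 and 8.45 in testis on the rhesus arrays. The pancreas arrays also stood apart in RNA and scale. The 3' minus 5' difference of the actin control was 4.89 and 4.26 there on the rhesus arrays against 2.03 to 2.79 elsewhere. It was 2.71 and 2.10 on the human arrays, against 1.96 to 2.51. That of the GAPDH control was 2.46 and 3.08 with rhesus probes, against 1.22 to 1.97, and 1.32 and 1.30 with human probes, against 0.0745 to 0.517. The spiked controls averaged 11.13 and 11.17 on the rhesus pancreas arrays against 9.545 to 10.3 elsewhere, and 11.35 and 11.41 on the human pancreas arrays against 9.89 to 10.55. The part of these features in the results below was not tested. In tissue RNA, more cells of a type and more RNA per cell cannot be told apart.

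The level of the whole group placed fibroblasts first and pancreas second. On the rhesus arrays the median over the 37 genes was 10.45 and 10.47 on the pancreas arrays, 11.15 and 10.87 in fibroblasts, 9.35 and 9.23 in testis, 9.31 and 9.29 in thymus, and 8.44 and 8.37 in cerebral cortex. The median over 49 genes in the human table was 9.26 and 9.25 in pancreas, 10.33 and 10.30 in fibroblasts, 8.50 and 8.45 in thymus, 8.24 and 8.18 in testis, and 7.57 and 7.52 in cerebral cortex. The arrays of pancreas and of fibroblasts lay above all arrays of the other 3 sources on both types. Testis and thymus overlapped on the rhesus arrays. After quantile normalization, which gives the 10 arrays of a type 1 common distribution, the pancreas medians were 10.89 and 10.87 and came to lie within the fibroblast values of 10.66 and 10.92. In the human table they became 9.87 and 9.86, still under the 10.05 of both fibroblast arrays.

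**Figure D1:**
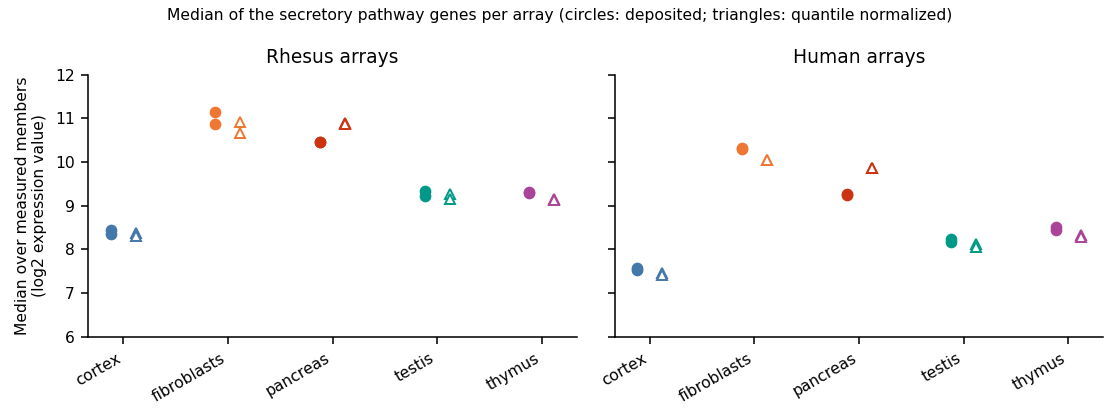
Median log2 expression value of the measured secretory pathway genes (37 with rhesus probes, 49 with human probes) on every array, by source, with deposited values as filled circles and quantile normalized values as open triangles. Fibroblasts are highest and pancreas second with the deposited values, and cerebral cortex is lowest at 8.37 to 8.44 and 7.52 to 7.57.

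Set against the mean of the other 4 sources, pancreas was called higher for 18 of 37 genes on the rhesus arrays (48.6%), where 9.81% of all measured genes were called higher. It was called lower for 2 (5.41%), against 23.8% of all genes. On the human arrays 16 of 49 were called higher (32.7%) against 5.01% of all genes, and 4 were called lower (8.16%) against 15.7%. The median difference over the genes was 0.783 with rhesus probes, beside -0.104 over all measured genes, and 0.512 with human probes, beside 0.0329. On both types 11 of the 35 shared genes were called higher: PDIA2, XBP1, SSR3, P4HB, SEC11C, SSR4, SEC61A1, SPCS1, SEC61B, ATF4 and SEC24D. HSP90B1 was the 1 gene called lower on both, and none was called in opposite directions. The difference had the same sign on both types for 32 of the 35. For the counts on both types, here and below, the share over all genes was not counted. Both types read RNA of the same sources, so these counts by themselves do not set the genes apart from other genes.

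Quantile normalization raised the number called higher in pancreas to 24 of 37 (64.9%) on the rhesus arrays, where the share of all genes became 15.2%. It gave 33 of 49 (67.3%) on the human arrays, where the share became 9.22%. The numbers called lower were 2 and 1, against 16% and 10.2% of all genes. The median difference became 1.31 and 1.24 and that over all genes -0.00753 and 0.006, and 21 shared genes were called higher on both types. The 11 genes called on both types with the deposited values were all among these 21. Subtracting the spiked controls gave another split, 10 higher and 9 lower of 37, and 10 higher and 12 lower of 49. That scaling shifted the median difference of all genes by -1.13 and -1.11, and of all genes it called 3.88% higher and 65.2% lower with rhesus probes and 1.57% higher and 68% lower with human probes. The distance of the genes' median from the median of all genes was 0.887 and 0.479 with the deposited values, and 1.32 and 1.23 after quantile normalization. Subtracting the spiked controls takes the same value from every gene of an array, so by arithmetic it cannot change this distance. With the deposited values and under each of the 3 other scalings, 7 genes were called higher on both types: PDIA2, XBP1, SSR3, P4HB, SEC11C, SSR4 and SEC61A1.

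**Figure D2:**
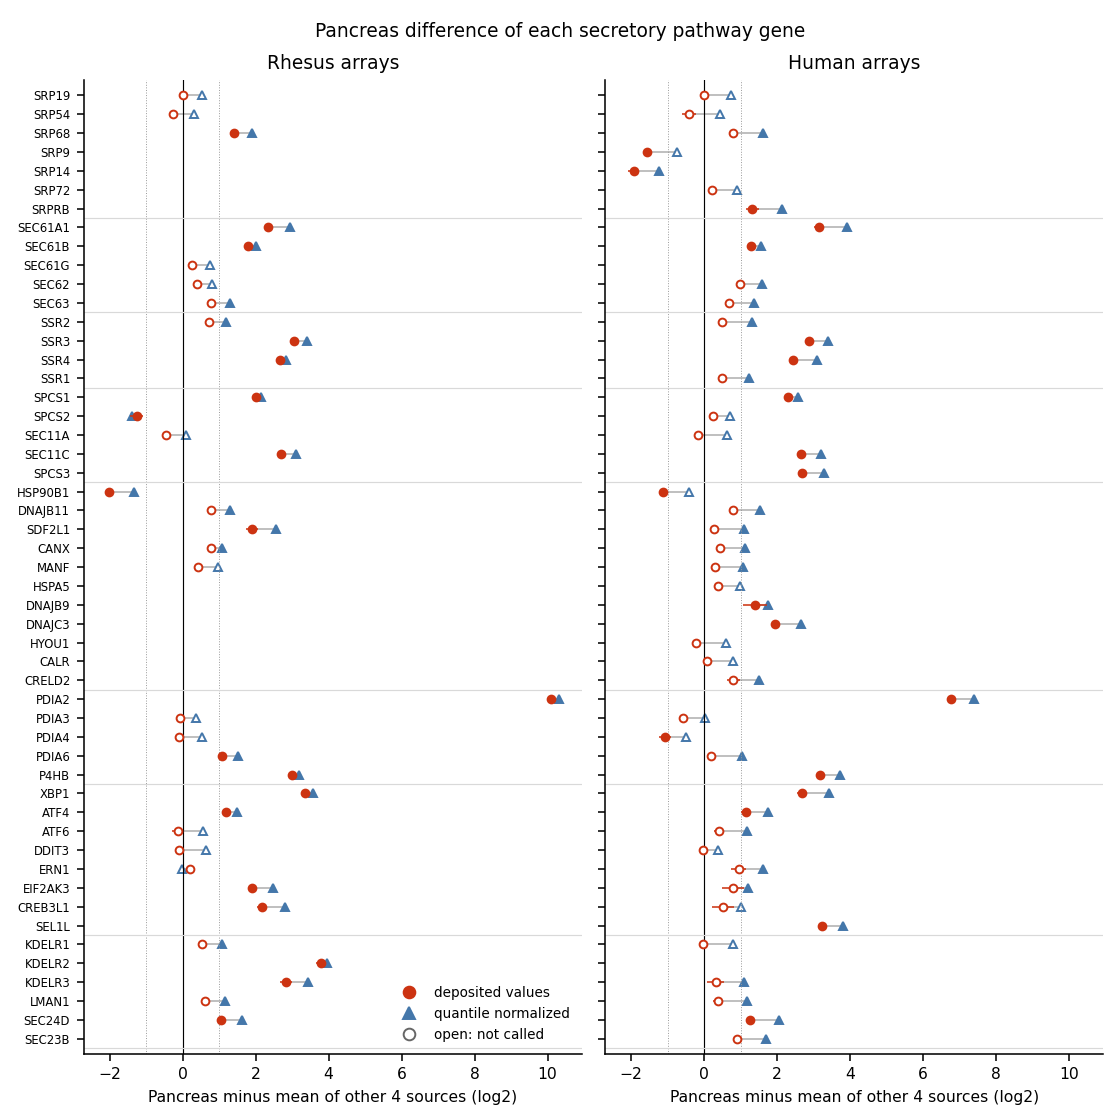
Pancreas minus the mean of the other 4 sources (log2) for every gene, ordered by role group, with rhesus probes at left and human probes at right. Circles with bars are deposited values with their standard error, triangles are quantile normalized values, filled symbols passed the call and dotted lines mark -1 and 1. PDIA2 is farthest right at 10.08 and 6.76 and HSP90B1 lies left of -1 on both types.

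Both pancreas arrays lay above all 8 other arrays for 14 of 37 genes on the rhesus arrays, where 22.6% of all genes did so. On the human arrays this held for 13 of 49 (26.5%), which is under the 32.1% of all genes. With quantile normalized values the numbers were 17 of 37 against 17.7% of all genes, and 25 of 49 against 20.2%. For 9 genes it held on both types with the deposited values: SEC61A1, SSR3, SSR4, SPCS1, SEC11C, PDIA2, P4HB, XBP1 and ATF4. Among the other sources the highest was fibroblasts for 30 of 37 genes and 40 of 49, a count that was not made over all genes.

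The signal recognition particle and its receptor held calls in both directions. The rhesus arrays called 1 of 3 subunits higher in pancreas, and the human arrays called 1 of 7 genes higher and 2 lower. For pancreas, the background of each role group is the share of all genes, 9.81% and 5.01% higher and 23.8% and 15.7% lower. After quantile normalization it was 15.2% and 9.22% higher and 16% and 10.2% lower. SRP19, a protein of the particle, read 9.97 and 10.07 in pancreas on the rhesus arrays and from 9.51 over a median of 9.85 to 10.76 on the other 8. The human arrays both read 9.75 in pancreas and 9.27 to 10.42 elsewhere. Pancreas thus lay inside the other sources, and the differences were 0.01 and 0.00. SRP68, another subunit, read 10.72 and 10.76 in pancreas and at most 9.83 elsewhere on the rhesus arrays, a difference of 1.40. Its human value was 0.80, short of the call, and the other rhesus probe sets of SRP68 differed by -0.83 and -0.19, neither called. SRP14 and SRP9, which form the part of the particle that halts translation, were measured on the human arrays alone and were called lower. SRP14 read 9.53 and 10.16 in pancreas against 11.67 to 11.88 on the other 8 arrays (difference -1.93, SE 0.153, limma adjusted p = 0.000163). SRP9 read 8.61 and 8.68 against 9.42 to 10.69 (-1.57), and was not called after quantile normalization (-0.74). SRPRB, the membrane anchor of the receptor, was called higher by 1.32 with arrays at 7.94 and 7.37, below the fibroblast arrays at 8.07 and 7.97. That probe set is of a class whose probes can match other transcripts. The other probe sets of SRPRB differed by 0.39 and, near the floor, by 0.04, neither called.

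In the channel SEC61A1, the pore, and SEC61B, a small subunit beside it, were called higher in pancreas on both types. SEC61A1 read 10.33 and 10.42 in pancreas on the rhesus arrays, 10.15 and 10.28 in fibroblasts, 7.84 and 7.80 in thymus, 7.64 and 7.77 in testis and 6.23 and 6.48 in cerebral cortex. With human probes it read 8.72 and 8.90 in pancreas, 8.36 and 8.41 in fibroblasts and 3.74 to 5.42 elsewhere. Pancreas and fibroblasts stood together, well above the other 3 sources, and pancreas minus the mean of the other 4 was 2.35 (SE 0.077, limma adjusted p = 1.26e-06) and 3.15 (SE 0.142, adjusted p = 1.58e-05). The probe set of the human arrays is of a class whose probes can match other transcripts, and both probe sets of the gene were called higher on each type. SEC61B read 12.69 and 12.68 in pancreas on the rhesus arrays and from 9.31 over a median of 10.74 to 12.78 on the others, and 12.75 and 12.66 on the human arrays against 9.98 to 13.12. Its differences were 1.79 and 1.29, and fibroblasts were level with pancreas or above it. SEC61G, the other small subunit, read 10.66 and 10.61 in pancreas, inside the 9.14 to 11.78 of the other rhesus arrays, and differed by 0.25. SEC62 and SEC63, partners that help chains enter after their synthesis, differed by 0.40 and 0.77 with rhesus probes and by 0.98 and 0.67 with human probes, all under the minimum of 1. Another rhesus probe set of each was called higher, by 1.05 for SEC62 and by 1.32 for SEC63. That of SEC63 had a mean of 9.820, beside 9.822 for the probe set used, so its rhesus call depends on the probe set.

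The translocon associated protein complex, which sits beside the channel, had 2 of 3 subunits called higher with rhesus probes and 2 of 4 with human probes. SSR3 read 12.35 and 12.38 in pancreas on the rhesus arrays and from 8.10 over 8.87 to 11.46 on the others. The human values were 11.76 and 11.74 against 7.60 to 10.93. No other array reached pancreas, and the differences were 3.06 and 2.86. SSR4 read 12.97 and 13.01 in pancreas on the rhesus arrays, 11.19 and 11.43 in fibroblasts, 10.62 and 10.53 in thymus, 10.07 and 9.996 in testis and 9.37 and 9.40 in cerebral cortex. Its human values were 11.19 and 11.23 in pancreas against 8.02 to 9.65, so the order of the sources was the same on both types and the differences were 2.66 and 2.44. SSR2 lay under the fibroblast arrays, with 11.09 and 11.08 in pancreas against 8.66 to 11.69 with rhesus probes, and 8.80 and 8.71 against 6.78 to 9.48 with human probes. Its differences of 0.73 and 0.49 missed the minimum and passed it after quantile normalization at 1.20 and 1.32. Another SSR2 probe set was called higher on the rhesus arrays (2.01). SSR1, on the human arrays alone, gave 0.49 with the deposited values and 1.24 after quantile normalization. Another SSR1 probe set was called higher (1.05), and one with a mean of 9.02, beside 9.22 for the set used, differed by 0.98, not called. The others, with means of 6.61 or less, differed by 0.02 to 0.23.

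The signal peptidase complex was split by subunit. SEC11C and SEC11A are alternative catalytic subunits. SEC11C read 12.06 and 12.18 in pancreas on the rhesus arrays, against 10.70 and 10.50 in fibroblasts, 9.94 and 9.92 in cerebral cortex, 9.36 and 9.35 in thymus and 7.93 and 7.78 in testis. Human probes gave 11.78 and 11.90 in pancreas and from 7.18 over 9.42 to 10.55 elsewhere. Pancreas was above every other array, by 2.69 over the mean of the other sources (SE 0.066, limma adjusted p = 3.98e-07) and by 2.65 (SE 0.076, adjusted p = 2.64e-06). The dimmer probe sets of SEC11C were not called. They differed by 0.24 (mean 6.02) and 0.08 (mean 2.06) with rhesus probes and by -0.09 (mean 3.06) with human probes. SEC11A read 9.42 and 9.34 in pancreas, within the 8.13 to 11.17 of the other rhesus arrays, and 9.09 and 9.12, within the 7.32 to 10.91 of the other human arrays. Its differences were -0.46 and -0.18, with fibroblasts the highest source on both types at 11.17 on each rhesus array. Another probe set of SEC11A was called lower in pancreas on the rhesus arrays.

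Of the accessory subunits SPCS1 read 13.10 and 13.13 in pancreas against 10.92 to 11.63 with rhesus probes, and 12.80 and 12.50 against 9.94 to 11.03 with human probes. Its other sources lay close together and pancreas stood 2.00 and 2.29 above them. SPCS3, on the human arrays alone, read 11.36 and 11.38 in pancreas, 11.08 and 10.99 in fibroblasts and at most 9.56 elsewhere, a difference of 2.68. Its other probe sets, with means of 8.47 and 6.69, differed by 0.80 and 0.55, neither called. SPCS2 read differently by type of array. On the rhesus arrays it read 9.75 and 9.72 in cerebral cortex and 2.96 to 3.87 on the other 8 arrays, pancreas included, which is at or just above the floor. Its call of lower in pancreas (-1.26) therefore rests on the level of cerebral cortex, and without the second pancreas array the difference was -0.98 and no longer called. With human probes SPCS2 read 11.76 and 11.83 in pancreas and 11.16 to 11.94 on the others, a difference of 0.23.

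**Figure D3:**
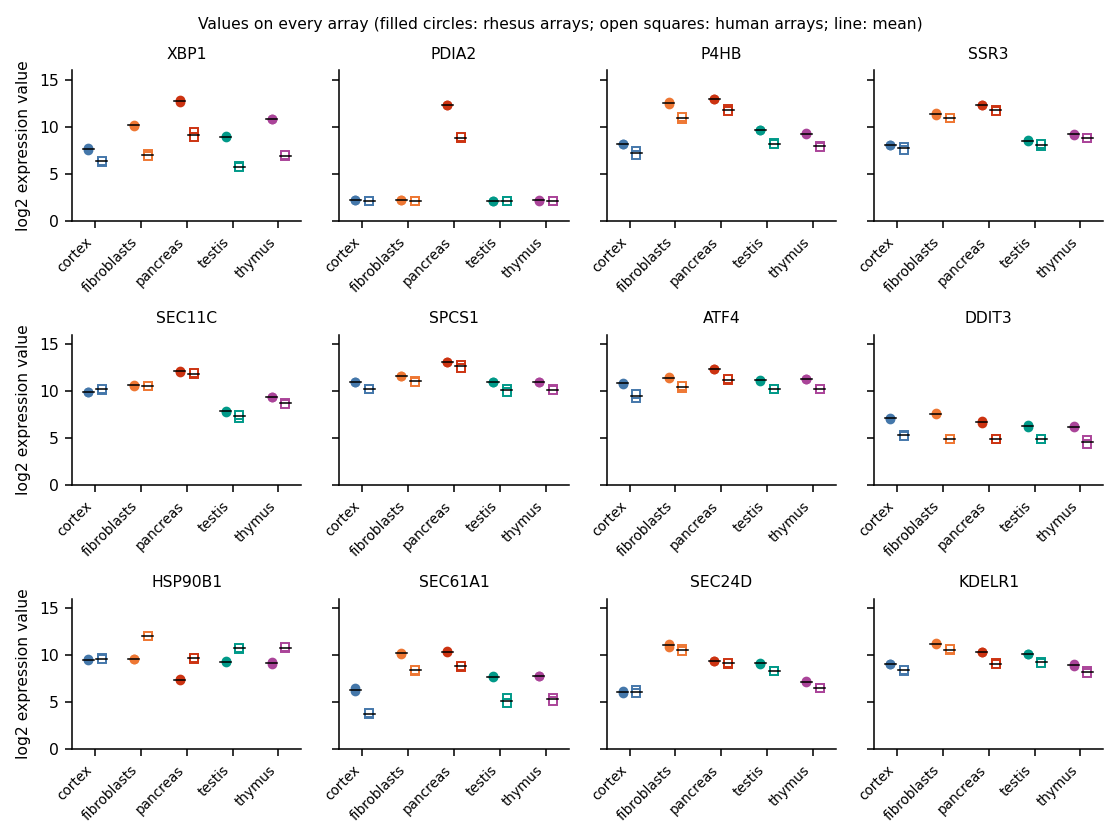
Log2 expression value of 12 of the genes on every array, by source, with rhesus arrays as filled circles, human arrays as open squares and the mean of each pair as a line. XBP1, PDIA2, P4HB, SSR3, SEC11C, SPCS1, ATF4 and SEC61A1 have both pancreas arrays above all other arrays of the same type, DDIT3 and KDELR1 do not, and HSP90B1 is lowest in pancreas on the rhesus arrays at 7.36 and 7.42.

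How many chaperones were called higher in pancreas turned on the scaling. With the deposited values the rhesus arrays called 1 of 5 higher and 1 lower, and the human arrays called 2 of 11 higher and 1 lower. After quantile normalization these became 3 higher and 1 lower of 5, and 7 higher of 11. HSP90B1, the endoplasmic reticulum member of the HSP90 family, read 7.36 and 7.42 in pancreas on the rhesus arrays and from 9.11 over 9.41 to 9.64 on all the others. The human arrays gave 9.65 and 9.75 in pancreas, level with cerebral cortex at 9.66 and 9.64 and below thymus at 10.76 and 10.83, testis at 10.70 and 10.73 and fibroblasts at 12.08 and 12.09. Pancreas was thus below every other array on the rhesus type alone, with differences of -2.01 (SE 0.059, limma adjusted p = 8.31e-07) and -1.12 (SE 0.032, adjusted p = 2.6e-06). The human difference was -0.41 after quantile normalization and -0.69 with fibroblasts left out, neither called. The other probe set of each type, which is dimmer, differed by 0.27 and 0.03, and both human probe sets are of the class whose probes can match other transcripts.

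HSPA5, the main HSP70 chaperone of the compartment and a standard marker of the unfolded protein response, was measured on the human arrays alone. It read 11.31 and 11.38 in pancreas, 12.81 and 12.55 in fibroblasts, 10.75 and 10.71 in testis, 10.55 and 10.53 in thymus and 9.84 and 10.02 in cerebral cortex. Pancreas was second to fibroblasts, and its difference of 0.38 was not called. DNAJB11, a co-chaperone of HSPA5, differed by 0.77 and 0.80 and read 10.50 and 10.63 in pancreas on the rhesus arrays against 11.68 and 11.61 in fibroblasts. MANF, a secreted stress protein, read 9.997 and 10.05 in pancreas and 11.46 and 11.53 in fibroblasts on the rhesus arrays, with 8.17 to 9.70 in the others. With human probes it read 9.26 and 9.46 in pancreas against 10.72 and 10.91 in fibroblasts, and the differences were 0.42 and 0.30. CANX, the lectin chaperone of glycoproteins, differed by 0.78 and 0.44. Its soluble relative CALR, on the human arrays alone, differed by 0.08 and HYOU1, which helps HSPA5 release its nucleotide, by -0.21. A pair of CANX probe sets was called in opposite directions on the human arrays, and another probe set of CALR was called lower (-1.75). The CALR probe set used is of the class whose probes can match other transcripts, and the set called lower (mean 8.60) is not. The remaining CALR set, also of that class, differed by -0.43, not called. The CALR result thus depends on the probe set.

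DNAJC3, a co-chaperone on the human arrays alone, read 10.43 and 10.29 in pancreas against 7.51 to 9.31 and was called higher by 1.94, as was another of its 4 probe sets. DNAJB9, a co-chaperone that represses ERN1, was called higher by 1.40, with pancreas arrays as far apart as 5.64 and 4.44 and a fibroblast array at 4.60 between them. SDF2L1, a partner of DNAJB11, was called higher on the rhesus arrays (1.90) and not on the human arrays (0.28). It read 8.45 and 8.80 in pancreas on the rhesus arrays, where fibroblasts read 9.15 and 9.19, thymus 7.96 and 7.92 and cerebral cortex 4.37 and 4.94. CRELD2, a stress target on the human arrays alone, differed by 0.80 and read 6.40 and 6.32 in pancreas against 8.14 and 7.84 in fibroblasts.

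The protein disulfide isomerases ranged most widely. PDIA2, known as the isomerase of the pancreas, read 12.29 and 12.28 in pancreas on the rhesus arrays and 2.16 to 2.25 on all the other arrays. The human arrays read 8.85 and 8.89 against 2.09 to 2.13. The other 4 sources were at the floor, so the differences of 10.08 and 6.76 (limma adjusted p = 1.94e-11 and 5.21e-11) are not exact folds. The second rhesus probe set was called higher too (4.18), but the other human ones were not, at 0.20 and 0.33. P4HB, the most studied isomerase and also the beta subunit of the collagen prolyl hydroxylase, read 12.93 on both rhesus arrays of pancreas, 12.45 and 12.62 in fibroblasts and 8.20 to 9.66 elsewhere. Human probes gave 11.87 and 11.64 in pancreas, 10.85 and 11.05 in fibroblasts and 7.05 to 8.28 elsewhere. Pancreas was first and fibroblasts second on both types, and the differences were 3.01 and 3.18.

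The other isomerases were highest in fibroblasts. PDIA3, which works with the lectin chaperones, read 11.28 on both rhesus arrays of pancreas against 12.54 and 12.53 in fibroblasts, 11.91 on both of testis, 11.19 and 11.22 in thymus and 9.75 and 9.84 in cerebral cortex. The human values were 11.01 and 11.33 in pancreas, within the 9.99 to 13.28 of the others. Its differences were -0.08 and -0.59. PDIA6 was called higher on the rhesus arrays (1.09), with 11.66 and 11.63 in pancreas against 11.70 and 11.79 in fibroblasts, and differed by 0.20 on the human arrays. PDIA4 differed by -0.10 on the rhesus arrays, where another of its probe sets was called higher by 1.40, and was called lower on the human arrays (-1.07), where its other probe set was called higher by 1.21. Its direction thus depends on the probe set.

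Among the stress genes XBP1 and ATF4 were called higher in pancreas on both types. XBP1, the transcription factor made active by ERN1 and required for a large secretory apparatus, read 12.65 and 12.87 in pancreas on the rhesus arrays. There thymus read 10.82 and 10.80, fibroblasts 10.22 and 10.09, testis 9.00 and 8.92 and cerebral cortex 7.80 and 7.59. The human arrays gave 9.42 and 8.94 in pancreas, 7.10 and 6.89 in fibroblasts, 6.91 and 7.02 in thymus, 6.31 and 6.35 in cerebral cortex and 5.83 and 5.70 in testis. Pancreas was above every other array of either type, by 3.35 over the mean of the other sources (SE 0.079, limma adjusted p = 3.36e-07) and by 2.67 (SE 0.127, adjusted p = 1.97e-05). These probe sets do not separate the spliced from the unspliced form.

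ATF4, the factor of the integrated stress response, read 12.37 on both rhesus arrays of pancreas and from 10.79 over 11.25 to 11.46 elsewhere. With human probes it read 11.19 and 11.27 against 9.22 to 10.54. Pancreas lay above all the others, by 1.20 and 1.14, but the rhesus difference was 0.98 with array medians subtracted and both were near 0 with spiked controls subtracted, at 0.07 and 0.03. DDIT3, a target of ATF4 tied to cell death under stress, read 6.60 and 6.84 in pancreas on the rhesus arrays, within the 6.19 to 7.68 of the others. Both human arrays of pancreas read 4.90 against 4.37 to 5.36. Its differences were -0.09 and -0.02.

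The sensors were less alike between types of array. EIF2AK3 was called higher on the rhesus arrays (1.90), with 9.50 and 9.55 in pancreas and at most 8.89 elsewhere. With human probes it read 4.52 and 5.72, the widest pair of any gene there (SD 0.852, n = 2), and its 0.79 was not called. ERN1 read 2.89 and 2.85 in pancreas on the rhesus arrays and 2.48 to 2.79 elsewhere, all within the floor. The human values were 6.42 and 5.98 against 3.64 to 6.14, a difference of 0.95. ATF6 differed by -0.14 and 0.40, neither called. After quantile normalization the human arrays called ERN1, EIF2AK3 and ATF6 all higher in pancreas, by 1.61, 1.21 and 1.16. On the rhesus arrays that scaling called EIF2AK3 alone of these (2.48), with ERN1 at -0.005 and ATF6 at 0.57. CREB3L1, a membrane-bound transcription factor of collagen secreting cells, was called higher in pancreas on the rhesus arrays (2.18), with 7.85 and 7.74 there and 10.28 and 10.54 in fibroblasts. Human probes gave 5.76 and 4.74 in pancreas against 8.99 and 9.17 in fibroblasts, a difference of 0.51. SEL1L, the adaptor of the complex that draws misfolded chains out for degradation, was measured on the human arrays alone. It read 11.56 and 11.65 in pancreas, 9.02 and 9.14 in fibroblasts and 7.67 to 8.43 elsewhere, and all 4 of its probe sets were called higher. Its difference was 3.24 (SE 0.059, limma adjusted p = 5.1e-07).

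In traffic between the endoplasmic reticulum and the Golgi, KDELR2, a KDEL receptor, stood apart. On the rhesus arrays, which alone measured it, KDELR2 read 12.96 and 12.97 in pancreas, 11.69 and 11.73 in cerebral cortex, 11.59 and 11.50 in testis, 8.18 and 8.27 in fibroblasts and 4.90 and 5.48 in thymus. Pancreas was above every other array and fibroblasts were second lowest, and all 4 probe sets were called higher in pancreas (3.80 for the brightest, SE 0.136, limma adjusted p = 1.87e-06). KDELR1 read 10.34 and 10.37 in pancreas, within the 8.86 to 11.24 of the other rhesus arrays, and 9.12 and 9.04 within the 8.11 to 10.62 of the other human arrays. Its differences were 0.53 and -0.03. KDELR3 was called higher on the rhesus arrays (2.84), with 10.45 and 10.44 in pancreas and 12.36 and 12.56 in fibroblasts, and differed by 0.32 on the human arrays.

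SEC24D, a cargo binding subunit of the COPII coat, was called higher on both types, by 1.05 and 1.26. It read 9.44 and 9.37 in pancreas on the rhesus arrays, 11.22 and 10.87 in fibroblasts, 9.03 and 9.21 in testis, 7.12 and 7.27 in thymus and 6.17 and 5.96 in cerebral cortex. The human values were 9.08 and 9.19 in pancreas against 10.71 and 10.41 in fibroblasts and 5.98 to 8.28 elsewhere. Pancreas came second to fibroblasts on both, and the rhesus difference was 0.82 with array medians subtracted and changed sign to -0.085 with spiked controls subtracted. LMAN1, a lectin that carries glycoproteins out, differed by 0.63 and 0.37, although another rhesus probe set of it was called higher by 3.15. SEC23B, a COPII subunit on the human arrays alone, differed by 0.91, with 9.23 and 9.25 in pancreas and 9.18 and 9.47 in fibroblasts.

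The mean of the other 4 sources includes the fibroblasts, which were high in many of these genes, so the fibroblasts were set against cerebral cortex, testis and thymus in a contrast of their own. They were called higher for 23 of 37 genes on the rhesus arrays (62.2%), where 17% of all genes were, and for 33 of 49 on the human arrays (67.3%), where 10.3% were. SPCS2 and KDELR2 were called lower on the rhesus arrays (16.6% of all genes), and 0 genes with human probes by limma or by the ordinary analysis of variance contrast (9.67% of all genes), where 0 were lower at an unadjusted p below 0.05 too. The median difference was 1.55 and 1.60. With fibroblasts left out of the pancreas contrast, a choice made after seeing the data, pancreas was called higher for 23 of 37 genes (11.3% of all genes) and 26 of 49 (5.41%). It was then called lower for 2 (24.3%) and 2 (16.2%). These contrasts share the arrays of the 3 tissues, and their values are given side by side and not compared.

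By role group, fibroblasts were called higher for 10 of 11 chaperones with human probes, and for 4 of 5 with rhesus probes. Pancreas against the mean of the other 4 gave 2 of 11 and 1 of 5. That mean includes the fibroblasts, while the fibroblast contrast leaves pancreas out, so the counts of this paragraph have unlike baselines. Pancreas with fibroblasts left out was not counted by role group. Of the traffic genes fibroblasts were called higher for 5 of 5 and 4 of 5 and pancreas for 1 of 5 and 3 of 5, again with human probes first. Fibroblasts were called higher for all subunits of the translocon associated protein complex, 4 of 4 and 3 of 3. Of the stress genes they were called higher for 1 of 8 and 2 of 7, and pancreas for 3 of 8 and 4 of 7. After quantile normalization the chaperone numbers were 8 of 11 and 4 of 5 for fibroblasts and 7 of 11 and 3 of 5 for pancreas. The traffic numbers were 5 of 5 and 4 of 5 for fibroblasts and 4 of 5 and 5 of 5 for pancreas, and the stress numbers 1 of 8 and 2 of 7 for fibroblasts and 6 of 8 and 4 of 7 for pancreas. The translocon associated numbers for fibroblasts were 3 of 4 and 3 of 3. Under that scaling fibroblasts were called higher for 17.3% and lower for 15.5% of all genes with rhesus probes, and for 9.32% and 9.75% with human probes. All fibroblast calls together were then 23 of 37 higher and 2 lower (62.2% and 5.41%), and 29 of 49 higher (59.2%). KDELR3 had the widest fibroblast differences, 6.48 and 5.87, with CREB3L1 next at 6.38 and 5.78. SEC24D gave 3.58 and 3.57 and P4HB 3.49 and 3.16, while XBP1 gave 1.00 and 0.64, neither called, and PDIA2 0.06 and 0.02.

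Pancreas and fibroblasts held most of the top places among these genes. Fibroblasts had the highest mean for 19 of 37 genes and 27 of 49, pancreas for 14 and 17, cerebral cortex for 3 and 2, thymus for 1 and 2, and testis for 0 and 1. Cerebral cortex was lowest for 26 of 37 and 27 of 49. Such places were not counted over all measured genes, so it is not known whether they are particular to this list. Both pancreas arrays were above both fibroblast arrays for 16 genes with rhesus probes and 15 with human probes, below them for 18 and 28, and overlapped with them for 3 and 6. The share of all measured genes separated in this way was not counted, so these numbers do not set the genes apart from other genes. The median of pancreas minus fibroblasts was -0.099 and -0.316.

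**Figure D4:**
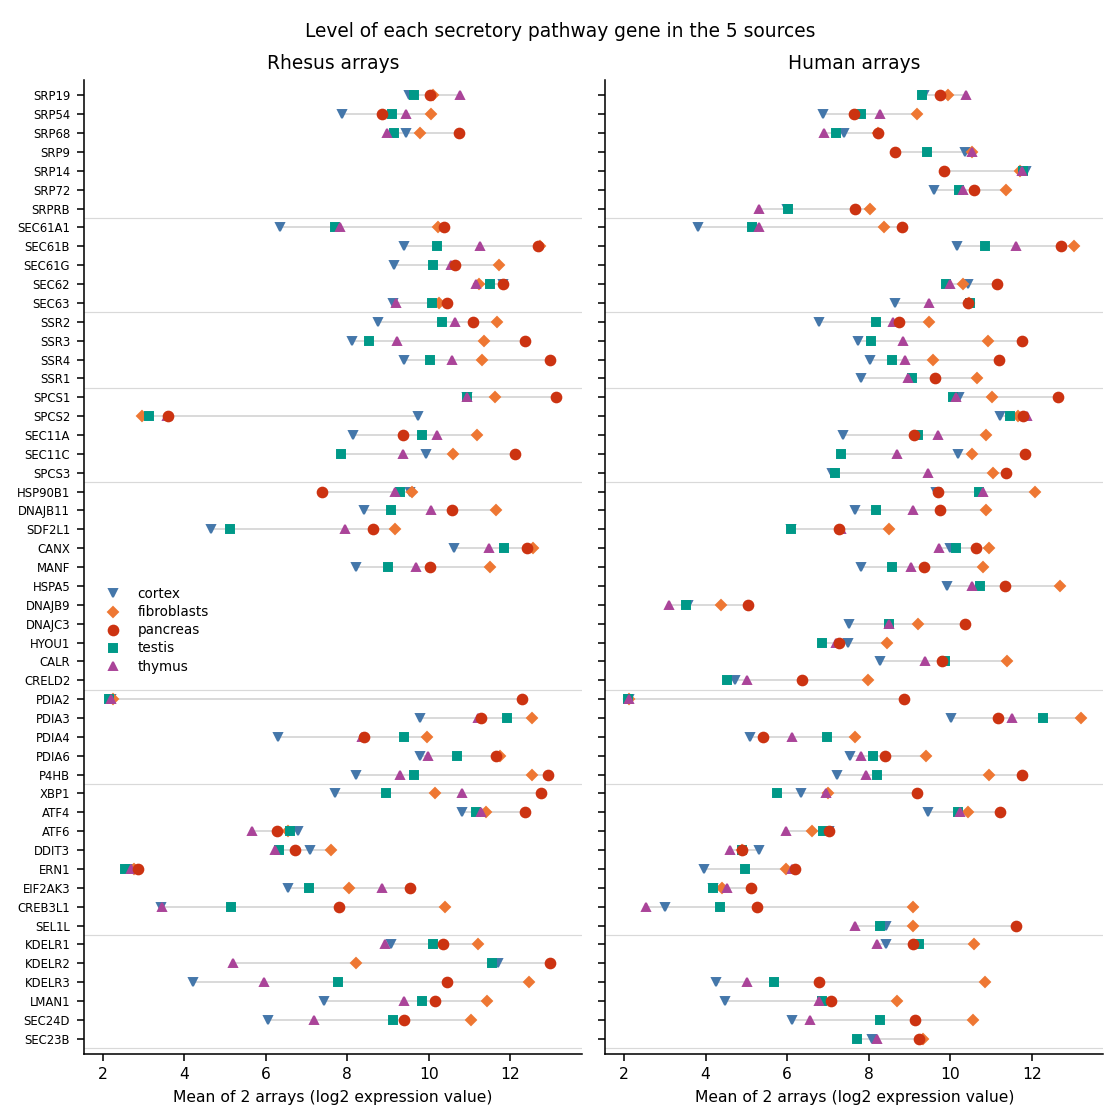
Mean log2 expression value of 2 arrays in each of the 5 sources for every gene, ordered by role group, with rhesus probes at left and human probes at right and a symbol per source. Fibroblasts (diamonds) are highest for 19 of 37 and 27 of 49 genes and pancreas (circles) for 14 and 17, and cerebral cortex (downward triangles) takes 26 and 27 of the lowest. These places were not counted over all genes.

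Other genes of the pathway, 103 in 6 lists, were read in the same way. Of 77 measured on the rhesus arrays 24 were called higher in pancreas (31.2%) and 5 lower (6.49%), beside 9.81% and 23.8% of all genes. Of 98 on the human arrays 20 were called higher (20.4%) and 12 lower (12.2%), beside 5.01% and 15.7%. After quantile normalization the numbers were 36 and 2, beside 15.2% and 16% of all genes, and 45 and 5, beside 9.22% and 10.2%. These shares of all genes are the background of each list below. Among other folding enzymes 8 of 17 and 5 of 18 were called higher, and 1 and 1 lower. That 1 was ERO1A (-1.17 and -1.63), which was not called after quantile normalization (-0.47 and -0.84). With that scaling 10 of 17 and 10 of 18 of these enzymes were called higher. ERO1B, the related oxidase that recharges the disulfide isomerases in secretory cells, was higher by 5.97 and 5.79, FKBP11, a prolyl isomerase, by 5.83 and 4.68, and NUCB2, a calcium binding secreted protein, by 4.39 and 4.38. FKBP11 was also high in fibroblasts, at a mean of 10.98 against 12.19 in pancreas on the rhesus arrays.

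Degradation genes were called higher for 5 of 11 and 5 of 12, with 0 and 1 lower. DERL3, a channel component of degradation found in secretory cells, had a rhesus mean of 10.43 in pancreas and of 2.93 to 2.94 elsewhere, at the floor, and its differences of 7.50 and 5.54 are not exact folds. HERPUD1, a stress induced scaffold, was higher by 2.38 and 1.59 and EDEM3, which trims sugars from misfolded chains, by 2.17 on both types. Of other targeting and translocation factors 3 of 9 and 3 of 13 were called higher, with 0 and 3 lower. TRAM1, a membrane protein beside the channel, was higher by 2.27 and 2.13, and SRPRA, the other subunit of the receptor of the signal recognition particle, by 2.24 and 2.26.

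The coat and cargo list had 5 higher and 2 lower of 15 and 3 higher and 3 lower of 22, which became 8 and 2, and 12 and 1, after quantile normalization. TMED3, a cargo adaptor, was higher by 2.78 and 2.20, and MCFD2, the partner of LMAN1, by 2.30 and 1.58. SEC23A, the other form of SEC23B, was lower by -2.44 and -2.20, with means of 7.24 and 7.16 in pancreas against 11.01 and 10.93 in fibroblasts. The oligosaccharyltransferase, which adds the sugar chain, had 0 of 9 and 1 of 12 subunits called higher by limma (4 and 6 at an unadjusted p below 0.05), and 1 and 2 lower. After quantile normalization 3 of 9 and 6 of 12 were called higher. STT3B, a catalytic subunit, was lower by -1.25 and -1.27 and was not called after quantile normalization at -0.71 and -0.45. Of other stress regulators and targets 3 of 16 and 3 of 21 were called higher and 1 and 2 lower, with median differences of -0.229 and -0.025. At an unadjusted p below 0.05 by limma, 5 and 5 of that list were higher and 8 and 7 lower. ASNS, the asparagine synthetase, was higher by 3.60 and 3.57, and BHLHA15, the acinar factor also called MIST1, by 1.61 and 2.99. The other sources of BHLHA15 were at the floor, with means of 2.505 to 2.64 and 2.40 to 2.44, so its differences are not exact folds. MBTPS2, the protease that releases ATF6, was lower by -1.34 and -1.03, and was not called after quantile normalization (-0.714 and -0.998). Its pancreas means of 5.04 and 3.69 were near those of cerebral cortex (5.16 and 3.61) and thymus (5.01 and 3.48), with fibroblasts (7.97 and 6.47) and testis (7.36 and 5.33) higher. WFS1, a membrane protein of the compartment, was lower with human probes alone (-1.36), with means of 2.71 in pancreas, 2.72 in testis and 2.21 in thymus. Its rhesus difference was -0.71, not called.

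The precision of these values is that of pairs of arrays. The median difference between the arrays of a source over the genes was 0.0614 with rhesus probes and 0.0959 with human probes. Standard errors of the pancreas difference ran from 0.0231 to 0.18 and from 0.0159 to 0.331. Of the genes with several probe sets, 21 rhesus and 34 human, probe sets were called in opposite directions for 0 and for 2, which were CANX and PDIA4. There were 6 rhesus genes and 3 human genes, CANX among the latter, that were not called at their brightest probe set but were called at another. Across the 35 shared genes the differences of the types of array had a Pearson r of 0.893 and a Spearman rho of 0.791, a description over genes that share the RNA of 5 sources and are not independent.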

How the data were processed

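For each array type the authors deposited a table of log2 values, with a row per probe set and a column per array. RMA is the method named in the submitters' processing notes. Its version was not found in the labels or the methods. The study's methods describe quantile normalization of single probe intensities within each pair of replicate arrays. Whether the deposited tables had this step is not stated, and it would narrow the scatter within pairs on which the p-values rest. Labelled RNA was made from 5 ug of total RNA. Probe sets were named through the platform annotation where it gave 1 symbol, and the probe set brightest on average over 10 arrays stood for its gene. Limma 3.58.1 under R 4.3.3 (lmFit, then eBayes) was run over all probe sets but controls, 52766 in the rhesus and 54613 in the human table, 1 table at a time, since the tables may have been normalized separately. Nothing was tested across array types. The number of arrays limits the precision. The genes and the lists were chosen with earlier results of these data known. Per-array values are given for up to 3 genes of a role group with the widest pancreas difference on the rhesus arrays among those called alike on both types, the gene of the group with the narrowest, and genes called on 1 type with the opposite sign on the other. Each pathway list gave up to 3 genes called alike on both types, and markers of the source labels were named after their values were seen, and the other genes of the 51 were named for context. Alternatives were quantile normalization, array medians or spiked controls (18 probe sets) subtracted, a filter at 4 in 2 or more arrays, calls without a minimum difference, an analysis of variance contrast without moderation, a replicate block, other readings of a gene, and each array left out. The fits were first tested on simulated data.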

Additional observations from a re-analysis of the deposited data

How the results depend on the processing

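On the rhesus and human arrays in turn, 18 and 16 genes were called higher in pancreas and 2 and 4 lower. With spiked controls subtracted these became 10 and 10, and 9 and 12, with 7 higher and 7 lower on both types, and 1 gene lower in fibroblasts on the rhesus arrays. With no minimum difference they were 28 and 32 higher, 4 and 7 lower, and 21 and 2 on both types. Quantile normalization gave 33 higher and 1 lower on the human arrays, and 21 higher and 0 lower on both types. When the probe sets of a gene were averaged, 1 and 2 were lower in pancreas, 0 on both types, and 1 was lower in fibroblasts on the rhesus arrays. With fibroblasts left out of the contrast, added after seeing the data, 26 were higher and 2 lower on the human arrays and 0 lower on both types. Leaving out each array gave 1 to 2 lower in pancreas on the rhesus arrays, with SPCS2 lost without pancreas replicate 2. Spiked controls turned SRP19 to -1.12 and -1.11 and SEC24D to -0.085 on the rhesus arrays. The causes were not tested. Array medians, the filter on dim probe sets, the analysis of variance contrast and the brightest probe set outside pancreas left every count within 1.5 times its value, though the last read PDIA2 on the human arrays from a probe set at 0.33.

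Replicate numbers did not pair the samples. The correlations of deviations between sources lay between -0.0252 and 0.0101 for the rhesus type and between -0.0341 and 0.0177 for the human type, 0 of 10 over 0.1 on each. With the replicate block, 18 and 16 genes were higher and 2 and 4 lower in pancreas, and 23 and 33 higher in fibroblasts, so it changed no count of calls.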
